A study of Mus musculus with 26 samples.

Results

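Hydroxymethylated RNA immunoprecipitation sequencing (hMeRIP-seq) enriches RNA fragments with an antibody against 5-hydroxymethylcytosine (5hmC), and the 13 peak lists examined here give the resulting sites in mouse cells. The regions described are the pyrimidine-rich minority of the sites inside genes. A listed peak was taken when its summit, the midpoint of its 200 bp interval, lay inside coding genes of a single strand (GENCODE M1, mm9), when at least 65% of the interval read on the gene strand was C or T, and when it held no perfect tandem run of 18 nt or more with a unit of 1 to 4 nt. This left 802 peaks of the 41845 genic peaks without such a run, out of 56538 listed peaks in all. Overlapping intervals merged into 403 regions in 364 genes, out of 23367 regions in the whole series. Genes that overlap on the same strand at a summit were counted together under a joined name. The rule read neither fold enrichment nor the group of a library, though a region enters only through a listed peak. Place within the gene is tied to sequence, so values for windows of the same genes are given beside the intronic share and the distance to 3′ splice sites.

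The libraries fall into 5 groups. Wild-type embryonic stem cells kept in leukaemia inhibitory factor (LIF) are called WT ESC, and the stem cells with Tet1, Tet2 and Tet3 knocked out TKO ESC. The third group, WT EB, holds embryoid bodies made from wild-type cells by 4 days of culture in the absence of LIF (3 IP libraries in each of these groups). Tet2-KI ESC carry Tet2 with a C-terminal Flag, HA and Twin-Strep tag at its own locus, and Tet2deltaRBD-KI ESC carry the same tagged Tet2 without its RNA-binding domain (2 IP libraries each). The knock-in cells were grown from single picked clones, and the study describes its replicates as independent experiments. P-values measure the spread between these libraries. A fold enrichment (IP over input, at the summit) is in the lists of all groups but the knock-ins, which hold positions only. The lists hold no read counts, so the depth behind them is unknown, a region without a listed peak is not a region shown to lack 5hmC, and levels of RNA and of 5hmC cannot be told apart where a peak is missing.

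In pre-mRNA, the stretch of C and U just upstream of a 3′ splice site, the polypyrimidine tract, is bound by the large subunit of the U2AF splicing factor, and the repressor PTBP1 binds CU-rich motifs there and deeper in introns. TET enzymes oxidise 5-methylcytosine to 5hmC, in DNA and also in RNA. Pyrimidine-rich RNA is thus of interest both as a possible substrate, since it is rich in cytosine, and for where it lies relative to splice sites.

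The sequences of 10 regions show what the rule collected. Each is one 200 bp interval of the mm9 genome on the gene strand, 5′ to 3′, with the longest unbroken pyrimidine run in capitals. The first 3 come from regions listed in the most libraries.
Muc6, chr7:148824442-148824641 (-): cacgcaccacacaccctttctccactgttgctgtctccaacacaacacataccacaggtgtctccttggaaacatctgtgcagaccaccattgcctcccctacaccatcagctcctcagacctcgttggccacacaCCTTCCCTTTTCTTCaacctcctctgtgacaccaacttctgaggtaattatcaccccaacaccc
Kcnq1, chr7:150473409-150473608 (+): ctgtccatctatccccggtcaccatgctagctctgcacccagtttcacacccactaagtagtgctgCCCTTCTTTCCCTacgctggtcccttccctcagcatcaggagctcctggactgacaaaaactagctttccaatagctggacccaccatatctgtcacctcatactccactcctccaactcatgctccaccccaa
Muc6, chr7:148822456-148822655 (-): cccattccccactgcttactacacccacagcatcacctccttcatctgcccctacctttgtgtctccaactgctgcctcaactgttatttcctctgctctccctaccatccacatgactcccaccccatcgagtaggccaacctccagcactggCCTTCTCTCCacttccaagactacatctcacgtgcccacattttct
The next interval is from a region listed in all 3 WT ESC libraries and in no TKO ESC library.
1700029H14Rik, chr8:13557187-13557386 (-): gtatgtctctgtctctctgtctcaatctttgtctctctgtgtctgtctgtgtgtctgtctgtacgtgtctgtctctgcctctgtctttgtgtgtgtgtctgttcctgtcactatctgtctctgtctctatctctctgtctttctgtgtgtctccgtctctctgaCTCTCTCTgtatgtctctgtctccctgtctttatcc
The Kcnq1 interval below was listed in TKO ESC and WT EB and not in WT ESC, and the Rims2 interval in both Tet2-KI ESC libraries and neither Tet2deltaRBD-KI ESC library.
Kcnq1, chr7:150434222-150434421 (+): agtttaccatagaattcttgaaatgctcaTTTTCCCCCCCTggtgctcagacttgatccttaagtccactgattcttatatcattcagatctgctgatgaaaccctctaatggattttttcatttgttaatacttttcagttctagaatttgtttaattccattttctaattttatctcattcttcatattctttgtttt
Rims2, chr15:39075867-39076066 (+): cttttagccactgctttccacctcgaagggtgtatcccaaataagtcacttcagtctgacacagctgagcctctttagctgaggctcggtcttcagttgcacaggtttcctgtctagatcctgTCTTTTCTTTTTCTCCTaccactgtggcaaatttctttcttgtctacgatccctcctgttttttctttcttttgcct
The next 3 have their summit within 100 nt before a 3′ splice site, the place of the polypyrimidine tract, and the last lies in the coding sequence of Polr2a.
Abcf1, chr17:36100990-36101189 (-): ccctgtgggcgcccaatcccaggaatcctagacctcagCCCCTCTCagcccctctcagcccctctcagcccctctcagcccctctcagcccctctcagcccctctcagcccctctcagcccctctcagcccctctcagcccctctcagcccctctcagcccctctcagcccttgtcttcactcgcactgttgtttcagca
Cpne5, chr17:29298452-29298651 (-): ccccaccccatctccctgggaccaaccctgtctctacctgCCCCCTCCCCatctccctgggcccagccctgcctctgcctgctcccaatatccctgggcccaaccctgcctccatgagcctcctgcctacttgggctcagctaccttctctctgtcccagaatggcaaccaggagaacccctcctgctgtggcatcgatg
Mtap7d2, chrX:155930100-155930299 (+): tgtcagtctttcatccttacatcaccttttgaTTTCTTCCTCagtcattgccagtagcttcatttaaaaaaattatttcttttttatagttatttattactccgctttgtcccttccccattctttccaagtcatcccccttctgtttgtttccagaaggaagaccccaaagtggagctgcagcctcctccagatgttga
Polr2a, chr11:69548677-69548876 (-): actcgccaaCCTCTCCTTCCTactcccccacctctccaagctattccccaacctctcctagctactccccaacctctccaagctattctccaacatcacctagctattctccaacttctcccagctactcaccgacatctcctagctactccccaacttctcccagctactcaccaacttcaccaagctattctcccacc

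The printed intervals make plain that the absence of a perfect short run is not the absence of repetition. Abcf1 consists of units of 10 nt, and stretches of alternating TC and TG, broken at irregular places, fill much of 1700029H14Rik. To put a number on this, each interval was compared with itself at shifts of 1 to 12 nt, and it was called an imperfect repeat when at least 60% of the bases matched at one shift. By this measure 355 of the 802 member peaks (44.3%) were imperfect repeats, against 2.30% of the other genic peaks and 5.93% of the purine-rich ones (at most 35% C plus T). The best shift was 6 nt in 108 of the 355, 10 nt in 79, 8 nt in 60 and 12 nt in 46. Muc6, Kcnq1, Rims2, Cpne5 and Mtap7d2, with 31.9 to 38.3% identity at the best shift, are pyrimidine-rich without such a period. Of the 403 regions, 147 were imperfect repeats by this measure and 256 were not. Longer periods lie outside the measure. Polr2a counts among the 256, although its intervals matched themselves at 82.9 to 84.2% of bases at a shift of 42 nt. The members are therefore called pyrimidine-rich peaks in what follows, and not peaks without repeats.

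Cytosine made up 34.9% and thymine 41.3% of the member sequence, against 18.0% and 22.6% in the other genic peaks. The median pyrimidine share was 75.0%, and GC content was 48.0% in the members and 48.4% in the others. The longest unbroken pyrimidine run had a median of 15 nt and ranged from 4 to 200 nt, and 23.4% of the members had a run of 20 nt or more, against 0.607% of the others. Pyrimidine content was 78.8% in the 50 nt after the summit and fell to 52.2% at the far upstream end and 53.4% at the far downstream end of a 1 kb window, of which the rule read the central 200 bp. Just inside the threshold, 24 peaks held 130 pyrimidines of 200 with a median fold enrichment of 5.83, and just outside it 30 peaks held 129 with 6.04. At the next counts the order was the reverse, with 6.12 for 25 peaks at 131 and 4.91 for 36 peaks at 128.

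**Figure D1:**
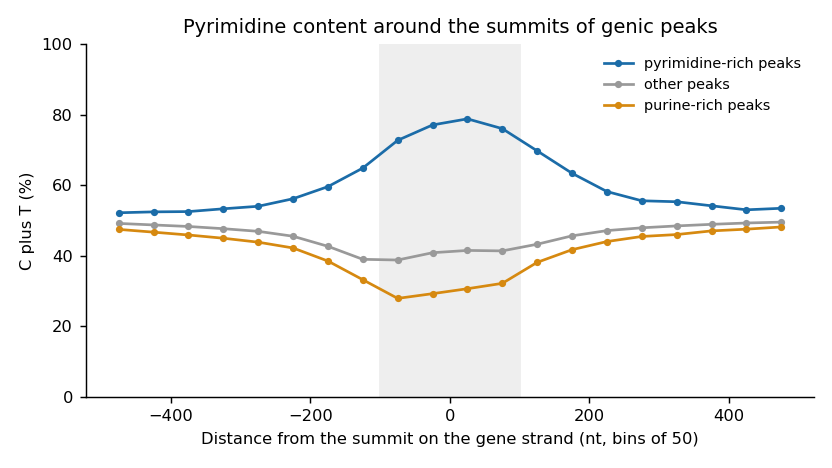
Share of C plus T (%) on the gene strand in bins of 50 nt around the summit, for pyrimidine-rich, other and purine-rich genic peaks of the 13 lists pooled. The grey band is the interval the rule used; outside it the pyrimidine-rich peaks return to 52.2% and 53.4% at the ends, and the purine-rich peaks reach 27.9% at their lowest.

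Hexamers of alternating T and C, with or without a G, recurred in most members. TCTCTC was found on the gene strand in 599 of the 802 peaks (74.7%), TCTCTG in 570 (71.1%) and CTGTCT in 551 (68.7%), and these 3 motifs share letters, so 1 stretch can hold several of them. Over all genic intervals of the same length the shares were 4.72%, 7.36% and 7.19% on the gene strand, and 20.2%, 16.8% and 15.0% on the opposite strand. In the members the opposite strand held them in 1.12%, 0.998% and 2.00%. TTTTTT was found in 8.35% of the members and 7.47% of all genic intervals, both on the gene strand. These motifs describe the rule's outcome, because the rule selects C and T.

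Pyrimidine-rich peaks were the rare orientation. The lists held 9769 purine-rich genic peaks, with a median of 31.5% pyrimidine, beside the 802 pyrimidine-rich ones. Over all 200 bp windows of the coding genes with a genic peak, 2.46% were pyrimidine-rich and 1.42% purine-rich. The strand is that of the annotated gene, since the lists carry none: 8.10% of the members had another annotated gene on the opposite strand at the summit, against 2.07% of the other genic peaks, and a peak from an antisense RNA would be read here as its complement.

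The first comparison asked whether these peaks took a larger part of the lists in WT ESC than in cells without Tet enzymes or in embryoid bodies. WT ESC replicates 1 to 3 held 118, 148 and 154 pyrimidine-rich peaks, which was 4.78%, 3.24% and 3.94% of their genic peaks. TKO ESC replicates held 17, 31 and 41, or 2.40%, 0.849% and 1.66%. WT EB replicates held 3, 14 and 21, or 0.704%, 0.919% and 0.674%. Every WT ESC library thus lay above every TKO ESC and every WT EB library, and the groups did not overlap.

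The mean share (± SD, n = 3) was 3.99% ± 0.770 in WT ESC, against 1.64% ± 0.776 in TKO ESC and 0.766% ± 0.134 in WT EB. The difference was 2.35 percentage points between WT ESC and TKO ESC and 3.22 points between WT ESC and WT EB (two-sided exact permutation test, p = 0.1 for each, the smallest value that 3 against 3 allows). The 2 comparisons share the WT ESC libraries. The size of the differences depended on the tandem-run filter. They were 4.60 and 6.33 points with no such filter, and 1.18 and 1.69 points with runs of 12 nt excluded. Among libraries whose descriptions begin with 1703, 2 in each group, the differences were 2.34 and 2.79 points (exact permutation test, p = 0.333, the smallest that 2 against 2 allows). With imperfect repeats left out, an alternative chosen after seeing the data, they were 1.32 and 1.67 points, again with no overlap of the groups. Only the WT ESC libraries exceeded the 2.46% of windows of the same genes.

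Tet2-KI ESC libraries held 156 and 39 pyrimidine-rich peaks, or 2.07% and 0.799%, and Tet2deltaRBD-KI ESC libraries 43 and 17, or 1.15% and 0.595%. The difference of means, 0.562 points, was smaller than the spread within Tet2-KI ESC (exact permutation test, n = 2 each, p = 0.667). It turned to -0.0749 points without Tet2-KI ESC replicate 1, the longest list.

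**Figure D2:**
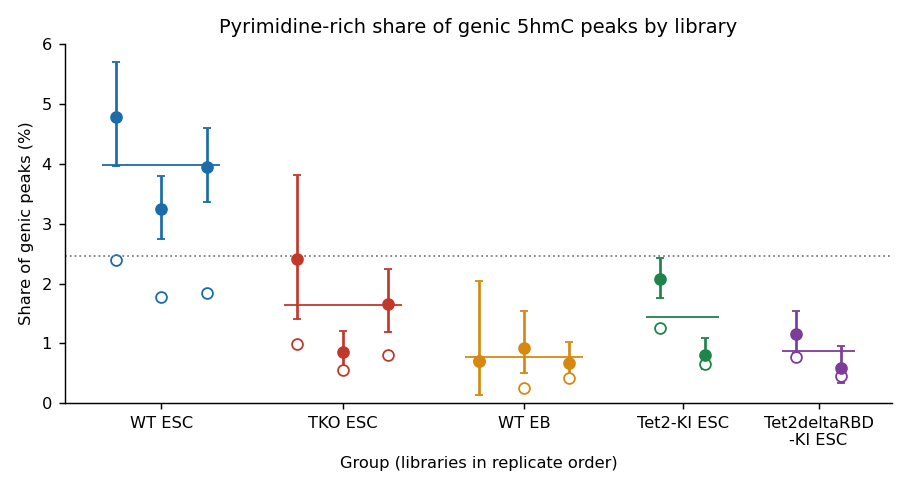
Pyrimidine-rich share of genic peaks (%) in each of the 13 IP libraries, in replicate order within groups. Filled points are the share with its exact 95% interval for the counting of peaks, open points count only members that are not imperfect repeats, short lines are group means and the dotted line marks the 2.46% of windows of the same genes; the 3 WT ESC libraries, at 3.24 to 4.78%, lie above all others.

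Other features of the lists moved with this share. Peaks outside coding genes made up 25 to 31.8% of the WT ESC lists, 9.97 to 18.5% of the TKO ESC lists, 6.98 to 10.8% of the WT EB lists and 8.30 to 18.4% of the knock-in lists. The share of genic peaks with a perfect tandem run was 14.1% on average in WT ESC, but 6.32% in TKO ESC and 3.63% in WT EB. There were 6.13 to 7.11 purine-rich peaks for each pyrimidine-rich one in WT ESC, 13.9 to 27.9 in TKO ESC and 26.0 to 32.3 in WT EB, while the purine-rich share itself overlapped between the groups (23.0 to 29.3% in WT ESC, 23.1 to 38.7% in TKO ESC). List length ran from 498 to 10383 peaks over the 13 libraries. The part of these features in the difference was not tested.

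Within genes, the pyrimidine-rich peaks were almost wholly intronic. Of the 802 peaks, 762 (95%) had their summit in an intron, 19 in coding sequence, 11 in a 5′ UTR and 10 in a 3′ UTR, whereas 64.9% of the other genic peaks were intronic and 26.4% lay in coding sequence. The intronic share of members exceeded that of other peaks in all 12 libraries with at least 5 members, by 20.8 to 47.0 points and by 30.1 points on average (two-sided exact sign-flip permutation test, p = 0.000488, the smallest that 12 libraries allow). In the windows of the same genes, 98.1% of pyrimidine-rich ones and 94.6% of all were intronic. The 355 imperfect repeats were intronic but for 1 peak, and 91.3% of the remaining members were. In WT ESC the members were 96.1 to 96.6% intronic and the other peaks 59.5 to 73.3%.

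Few of these intronic peaks lay where polypyrimidine tracts are found. An interval with its summit within 100 nt of a splice site reaches into the exon, so the pyrimidine rule itself bears on this distance. The summit lay within 100 nt before a 3′ splice site in 7 of the 762 intronic members (0.919%, exact 95% interval 0.370 to 1.88%), in 13.1% of the other intronic peaks and in 1.20% of the purine-rich ones. The interval counts peaks as separate, although overlapping peaks recur over the lists and all members merge into 403 regions. Averaged over the 12 libraries, the share was 1.53% for members and 14.8% for other peaks, lower in every library, with a mean difference of -13.3 points (exact sign-flip permutation test, p = 0.000488, the smallest possible). Against purine-rich peaks the mean difference was -0.00497 points (exact sign-flip permutation test, n = 12, p = 0.997), and single libraries differed by -3.57 to 6.08 points. Among windows of the same genes the share was 0.841% for pyrimidine-rich intronic windows and 1.79% for other intronic windows. The members were thus close to their windows, while the other peaks lay far above theirs. Within 100 nt after a 5′ splice site lay 1.05% of the members, 4.01% of the purine-rich peaks and 14.8% of the other peaks, and windows were not measured for this distance. The median distance to the next 3′ splice site was 10408 nt for members, 3644 nt for other peaks and 12902 nt for pyrimidine-rich windows. It was 17969 nt for imperfect repeats and 6601 nt for the rest of the members.

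**Figure D3:**
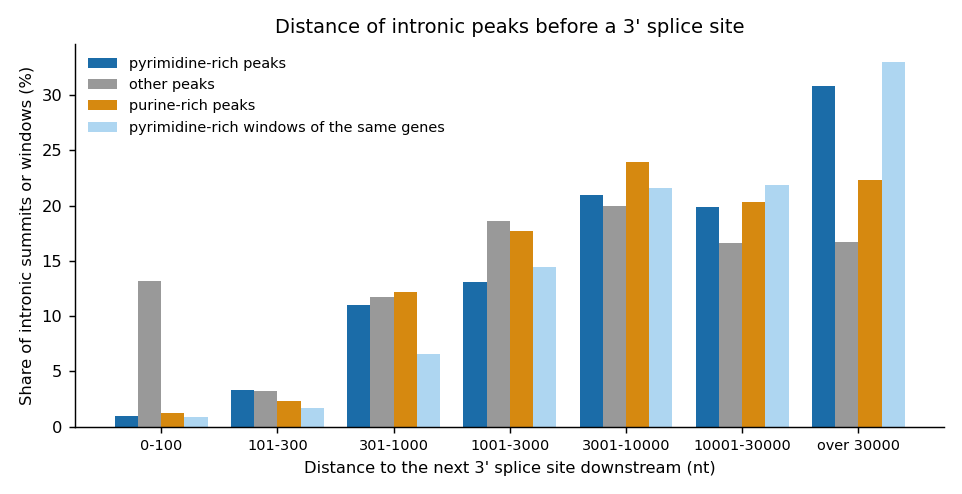
Distance in nt from intronic summits to the next 3′ splice site downstream, as the share (%) of pyrimidine-rich, other and purine-rich peaks of the 13 lists pooled, with pyrimidine-rich 200 bp windows of the same genes. Within 100 nt lie 0.927% of the pyrimidine-rich peaks with a measured distance and 13.2% of the other peaks, while 30.9% and 16.7% lie beyond 30000 nt.

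The 6 intronic regions within 100 nt before a 3′ splice site were each listed in few libraries. That in Abcf1 (chr17:36100990-36101189), 99 nt before the exon and made of the 10 nt units shown above, was listed in WT ESC replicate 2 (fold enrichment 5.54), WT EB replicate 3 (5.82) and Tet2-KI ESC replicate 1. Cpne5, which encodes a copine, a calcium-dependent phospholipid-binding protein, had one 61 nt before an exon, listed in WT ESC replicate 1 (8.94) and Tet2-KI ESC replicate 1. Mtap7d2 had one 56 nt before an exon, in TKO ESC replicate 3 (6.52) and WT EB replicate 3 (7.81). Lix1l, with another annotated gene on the opposite strand, had one at 93 nt, in WT ESC replicates 2 and 3 (6.85 and 4.66). Ctnnd1, which encodes p120-catenin, and Ptger1, a prostaglandin E2 receptor, had theirs at 30 and 68 nt, each in a single knock-in library.

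The fold enrichment of the members was slightly below that of the other peaks of the same list. The medians were 5.73, 5.20 and 5.26 in WT ESC replicates 1 to 3 for members and 6.23, 5.96 and 5.88 for other genic peaks. In TKO ESC they were 6.46, 6.70 and 5.60 for members and 5.98, 7.35 and 6.87 for others. In WT EB they were 5.43, 7.51 and 6.34 for members and 5.43, 7.44 and 7.15 for others. The members were lower in all 3 WT ESC libraries, and the other groups were mixed.

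On the log2 scale the mean within-library difference was -0.12 ± 0.13 (SD, n = 8 libraries with at least 5 members), lower in 6 of the 8 (two-sided exact sign-flip permutation test, p = 0.0391). Against purine-rich peaks it was -0.13 ± 0.11 (exact sign-flip permutation test, n = 8, p = 0.0312). Both calls depended on single libraries: without any one of WT ESC replicates 1, 2 and 3, TKO ESC replicates 2 and 3 and WT EB replicate 3, the differences stayed between -0.13 and -0.09 but the exact p rose to between 0.0625 and 0.0781. Between groups, the log2 fold enrichment of the members (mean of library medians ± SD, n = 3) was 2.43 ± 0.08 in WT ESC, compared with 2.64 ± 0.14 and 2.67 ± 0.23 in TKO ESC and WT EB. That of the other genic peaks was also lowest in WT ESC, at 2.59, compared with 2.75 in TKO ESC and 2.73 in WT EB. For the members, the differences of WT ESC from TKO ESC and WT EB, -0.21 and -0.24, gave p = 0.2 for each (exact permutation test, in which 3 against 3 allows no value below 0.1). They ran from -0.287 to -0.158 and from -0.356 to -0.123 when 1 library was left out. With imperfect repeats left out they were -0.0851 and -0.349. The WT EB mean includes replicate 1, with 3 members. The highest fold enrichment was 21.2 among the member peaks and 65.8 among the other peaks.

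**Figure D4:**
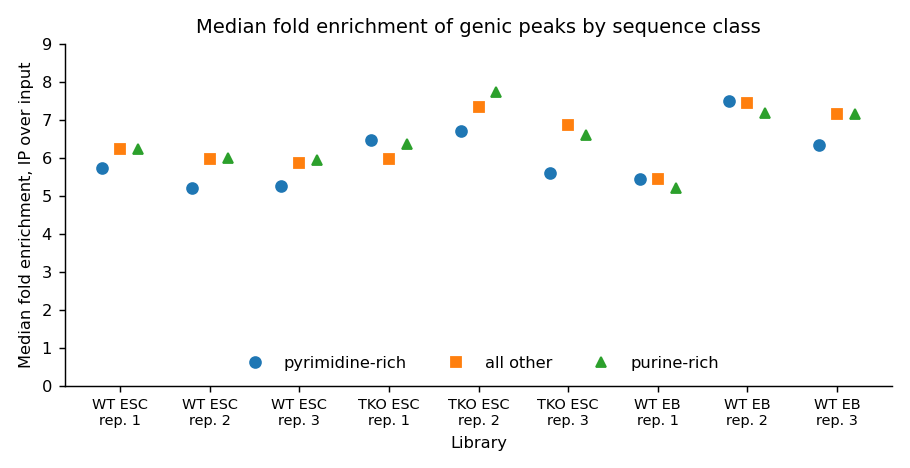
Median fold enrichment, IP over input on a linear axis, at the summits of pyrimidine-rich, all other and purine-rich genic peaks in the 9 libraries that carry the value. In WT ESC the pyrimidine-rich medians, 5.20 to 5.73, lie below both other classes in every replicate; TKO ESC replicate 1 and WT EB replicate 2 show the opposite order for other peaks.

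Presence was then followed across libraries. A region was taken as listed in a library when any peak of its list overlapped it, also a peak that did not itself meet the rule, and its fold enrichment there is the highest among them. Of the 403 regions, 184 were listed in 1 library (45.7%, against 53.6% of the other genic regions), 88 in 2, 51 in 3 and 80 in more (19.9% in both classes), and none in all 13. A region is a member only through a pyrimidine-rich peak in some list. The shares by group that follow thus restate in part the peak shares given above and are not a separate result. At least 1 WT ESC library listed 291 of the 403 regions (72.2%), against 42.1% of the 16577 other genic regions, and WT ESC alone listed 145 (36.0%), against 14.4% of the other regions. The other groups listed smaller shares of the members than of the other regions. These were 81 regions in TKO ESC (20.1% against 27.8%), 44 in WT EB (10.9% against 21.1%), 198 in Tet2-KI ESC (49.1% against 56.0%) and 64 in Tet2deltaRBD-KI ESC (15.9% against 31.6%). The regions of a single library came mainly from WT ESC replicates 2 and 3 (35 and 44) and Tet2-KI ESC replicate 1 (37). All replicates of WT ESC listed 61 members (15.1%, against 5.47% of the other regions). For TKO ESC this was 6 (1.49% against 1.68%), for WT EB none (against 0.603%), for Tet2-KI ESC 29 (7.20% against 15.4%) and for Tet2deltaRBD-KI ESC 11 (2.73% against 7.12%).

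The 61 regions of all 3 WT ESC libraries were followed into the other lists. Of them, 30 lacked a peak in TKO ESC altogether, or 49.2% (exact Clopper-Pearson 95% interval 36.1 to 62.3%), while 204 of 907 other genic regions had none (22.5%, 19.8 to 25.4%), and the share over all 968 replicated genic regions was 24.2%. In WT EB 49 had no peak, or 80.3% (68.2 to 89.4%), against 43.0% of the other regions (39.7 to 46.3%) and 45.4% of all. The intervals cover the counting of regions only and not the spread between libraries, and both shares use the same WT ESC libraries. A peak was missing from both TKO ESC and WT EB in 26 of the 61, from WT EB alone in 23 and from TKO ESC alone in 4, and 8 were listed in both. This split was not counted for the other genic regions, so it has no background to be read against.

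Library by library, these 61 regions were listed less often than the 907 other regions in each of the other 10 lists. TKO ESC replicates listed 12, 12 and 27 of the 61 (19.7%, 19.7% and 44.3%), against 37.2%, 58.1% and 63.5% of the other regions. WT EB replicates listed none, 10 and 4, against 19.3%, 43.7% and 41.5%. Tet2-KI ESC replicate 1 listed 46 (75.4%) and replicate 2 listed 7 (11.5%), against 88.8% and 66.9%. Tet2deltaRBD-KI ESC replicates listed 16 and 4 (26.2% and 6.56%), against 67.9% and 44.0%. The median fold enrichment of the 61 regions in WT ESC was 5.37, 5.20 and 6.14, below the 6.69, 7.70 and 7.77 of the 907 other regions, and the part of this lower enrichment in the missing peaks was not tested. Among imperfect repeats 20 of 40 had no TKO ESC peak (50.0%), and among the remaining regions 10 of 21 (47.6%).

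**Figure D5:**
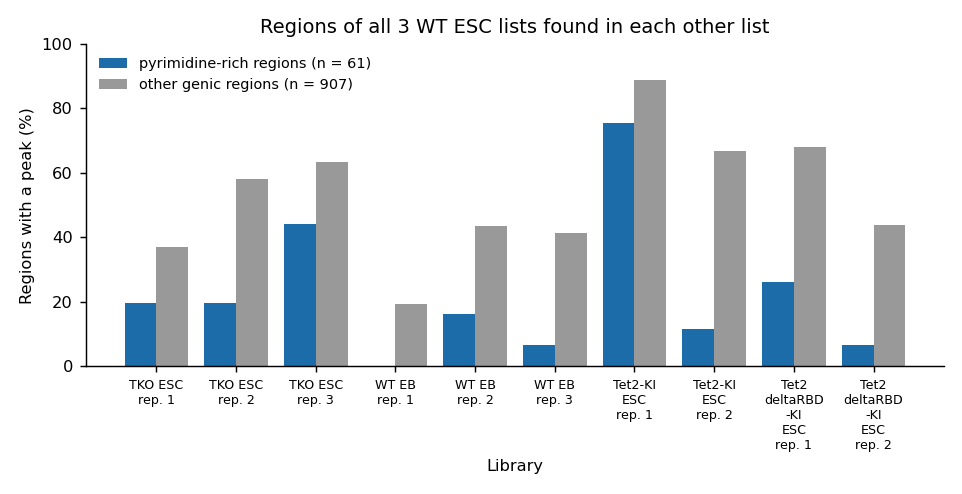
Share (%) of the regions listed in all 3 WT ESC libraries that had a peak in each of the other 10 lists, for 61 pyrimidine-rich and 907 other genic regions. The pyrimidine-rich bar is the shorter one in every list, and ranges from none of the 61 regions to 75.4% of them.

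Regions with all 3 WT ESC peaks and no TKO ESC peak were ordered by the lowest of their WT ESC fold enrichments, and the first 8 lay in introns of genes with varied roles. The region in Abca9, an ABC transporter gene, had a fold enrichment of 8.94, 9.54 and 7.89 in WT ESC replicates 1 to 3 and no peak in the other 10 lists. In Lrp1b, which encodes a large receptor of the LDL receptor family, it was 9.74, 6.07 and 8.74, and in Hsd17b11, a hydroxysteroid dehydrogenase gene, 7.10, 6.07 and 6.14, again with no peak elsewhere. Klhl3, a substrate adaptor of cullin-3 ubiquitin ligases, had 5.37, 6.85 and 5.39 and no other peak.

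The other 4 of these 8 regions were also listed in a knock-in library. The region in 1700029H14Rik (8.97, 8.96 and 7.39), that in Phactr2 (6.53, 5.99 and 6.28), whose product regulates actin and protein phosphatase 1, and that in Pde4d (10.2, 5.84 and 10.2), a cAMP phosphodiesterase gene, each had a peak in Tet2-KI ESC replicate 1. The region in Fstl4, a follistatin-like gene, had 16.7, 6.57 and 10.9 and a peak in replicate 1 of both knock-in groups. Of all 30 such regions, 29 were intronic, 20 were imperfect repeats, and Tet2-KI ESC replicate 1 listed 18. Polr2a held the single one in coding sequence.

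The reverse pattern, a peak in at least 2 libraries of TKO ESC or of WT EB and in no WT ESC library, was found in 4 of the 403 regions (0.993%) and in 2.81% of the other genic regions. An intronic Kcnq1 region (chr7:150434222-150434421) had a fold enrichment of 8.92 and 9.53 in TKO ESC replicates 2 and 3 and 3.86 and 7.72 in WT EB replicates 2 and 3. Zfp605, a zinc finger gene, had 7.35 and 7.62 in TKO ESC replicates 2 and 3 and 8.40 in WT EB replicate 3. Zfp605 and Syt11 have another annotated gene on the opposite strand at the region. Trpm3, which encodes a cation channel, had 6.27 and 6.68 in TKO ESC replicates 2 and 3, and Syt11, a synaptotagmin gene, 4.89 and 4.93 in TKO ESC replicates 1 and 3.

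Regions replicated in the knock-in groups were not listed less often throughout. Of the 11 members in both Tet2deltaRBD-KI ESC libraries, TKO ESC replicates listed 45.5%, 54.5% and 27.3%, against 23.2%, 34.8% and 32.8% of 1181 other regions. Of the 29 in both Tet2-KI ESC libraries they listed 31.0%, 37.9% and 31.0%, against 15.4%, 42.7% and 35.7% of 2555.

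The knock-in groups were compared to ask what the RNA-binding domain of Tet2 changes. Of the 29 regions listed in both Tet2-KI ESC libraries, 9 had no Tet2deltaRBD-KI ESC peak, or 31.0% (exact Clopper-Pearson 95% interval 15.3 to 50.8%), against 895 of the 2555 other genic regions and 35% of all, so the share was near the background. It was 56.3% without Tet2-KI ESC replicate 1 (55.0% of the other regions), 77.1% without Tet2-KI ESC replicate 2 (65%) and 67.9% without Tet2deltaRBD-KI ESC replicate 1 (66.4%). By number of other libraries, the first 4 of the 9 regions lay in introns of Rims2, a scaffold gene of the synaptic active zone (chr15:39075850-39076087), A330008L17Rik, the transcription factor gene Nfib and the receptor tyrosine kinase gene Alk. The Rims2 region had a low fold enrichment of 3.37 and 2.63 in WT ESC replicates 2 and 3 and of 3.91 and 4.34 in TKO ESC replicates 2 and 3. That in Nfib reached 22.6 in WT ESC replicate 1. Both Nfib and A330008L17Rik have an annotated gene on the opposite strand there. A single region, in an intron of the aggrecanase gene Adamts4, showed the opposite pattern, and no other list held it. The share of other regions with that pattern was not counted. Of the 11 members in both Tet2deltaRBD-KI ESC lists, Tet2-KI ESC replicates 1 and 2 listed 90.9% and 81.8%, against 73.8% and 72.7% of 1181 other regions.

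The regions found in the most libraries included imperfect repeats and regions that were not repeats at shifts of 1 to 12 nt. A region of Muc6 coding sequence (chr7:148824427-148824651), part of a gel-forming mucin of the stomach, was listed in 12 libraries, with 7.77, 21.7 and 11.6 in WT ESC, 5.11, 12.6 and 10.8 in TKO ESC and 5.38 and 6.08 in WT EB replicates 2 and 3. A second Muc6 region (chr7:148822387-148822812) was listed in 9, with 13.8, 12.6 and 7.55 in WT ESC and 5.98, 14.7 and 6.94 in TKO ESC, and in no WT EB library. In Kcnq1 (chr7:150473409-150473608) the values were 11.5, 11.5 and 19.8 in WT ESC, 7.21, 7.96 and 4.80 in TKO ESC and 5.44 in WT EB replicate 3, and all 4 knock-in lists held it. In WT ESC all 3 Kcnq1 values exceeded the 3 of TKO ESC, while those of Muc6 overlapped.

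Ppp1r9a, which encodes the actin-binding scaffold neurabin, had an intronic imperfect repeat listed in 11 libraries, at 7.76, 4.42 and 5.02 in WT ESC and 6.76, 4.97 and 4.29 in TKO ESC. The region in St7, also an imperfect repeat, reached 22.3, 13.9 and 5.88 in WT ESC and 7.63, 20.3 and 13.8 in TKO ESC. Tiam1, an activator of the GTPase Rac, was listed in 9 libraries and low in the 5 that carry a fold enrichment, at 2.62, 2.89 and 2.52 in WT ESC and 2.45 and 2.59 in TKO ESC replicates 1 and 2. The others of the leading 10, chosen by median fold enrichment among 7 regions in 8 libraries, lay in introns of 3110057O12Rik, Tgfbr3, Fam3b and Scn9a, the last 3 encoding a TGF-beta co-receptor, a secreted cytokine-like protein and a voltage-gated sodium channel. The regions in 3110057O12Rik and Fam3b have an annotated gene on the opposite strand. Scn9a had 10.7, 5.07 and 7.55 in WT ESC, 8.17 and 7.62 in TKO ESC replicates 1 and 3 and 7.51 in WT EB replicate 2.

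Kcnq1, a potassium channel gene, held 3 pyrimidine-rich regions. Its span on chromosome 7 is 320 kb long, yet all 29 listed peaks inside it, from 12 libraries, lay within one stretch of 61.7 kb (150419488 to 150481181) and held 52.5 to 66.0% pyrimidine on the Kcnq1 strand. RefSeq (GRCm38) places the antisense RNA Kcnq1ot1 within Kcnq1, and GENCODE M1 does not contain it. Sense and antisense RNA cannot be told apart in these lists, so the strand on which these peaks count as pyrimidine-rich is uncertain. Copg2, which encodes a COPI coat subunit, held 4 regions, the most of any gene, and Cdh4, Gli2 and Tnik held 3 each, most of them in 1 or 2 libraries. In all, 331 genes held a single region and 33 held more, with overlapping genes counted under a joined name.

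In coding sequence only 8 regions were found, and Muc6 held 2 of them. The Polr2a region (chr11:69548677-69548920) had 2.07, 2.04 and 3.25 in WT ESC and no peak in any other list. Polr2a encodes the largest subunit of RNA polymerase II, which ends in a repeated heptad, and the 3 intervals matched themselves at 82.9 to 84.2% of bases when shifted by 42 nt. C1qbp, which encodes a mitochondrial matrix protein, had 1 region, in WT EB replicate 3 (14.2). Intervals of pyrimidine alone included those in introns of Psme4 (4.41 in TKO ESC replicate 2), Epb4.1l4a (4.12 in WT EB replicate 3) and Ppp6r3 (8.55 in TKO ESC replicate 2 and 5.06 in WT EB replicate 3).

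Genes tied to pyrimidine tracts or to pluripotency were looked up by list. Among 20 genes of tract-binding and 3′ splice site factors (Ptbp1, U2af2, Pcbp1, Hnrnpc and others), 16 had a genic peak and none a pyrimidine-rich one. The same was true of 15 of 20 pluripotency genes and of 8 of 10 genes of Polycomb repressive complex 2. Of the 9 genes that the study names, all with a genic peak, only Cdh4 held any, with 3 regions, and these genes were chosen by the study on the same samples. Over all 6421 genes with a genic peak, 364 or 5.67% held a pyrimidine-rich one, so lists of this length would hold few at that rate. Peaks that carry a joined name of overlapping genes were not matched to the lists, so the list counts may be too low. The Cdh4 regions were listed once each, in WT ESC replicate 1 (5.73), WT ESC replicate 2 (5.20) and Tet2-KI ESC replicate 1.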

How the data were processed

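Peak lists of 13 hMeRIP-seq IP libraries were analysed, and groups and replicates were taken from the sample titles. The authors took out low-complexity reads (AfterQC), a step that bears on repeat-like peaks, and filtered and trimmed the rest (FastQC, Bowtie2 against rRNA and tRNA, Trimmomatic), mapped them with STAR to mm9 and called peaks with MACS2, setting each IP library against its matched input, whose versions are not given in the sources used here, and fixed every interval at 200 bp. The deposited fold enrichment, a ratio of IP over input from the authors' peak caller, is in 9 lists and was used on the log2 scale. Input libraries were not analysed here, and the sequences of some regions are not reported here.

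Of 56538 intervals, 99.7% lay on the reference (NCBIM37, the assembly behind mm9, with GENCODE M1). Of these, 9960 had their summit outside coding genes and 924 in genes of both strands, and 3646 of the remaining 45491 held a perfect tandem run. A summit in no exon of a coding transcript was called intronic. Pyrimidine-rich peaks overlapping on one strand were merged into regions, and a region was replicated when every library of a group overlapped it by at least 1 bp. Library values were compared by exact permutation tests at a threshold of 0.05, and shares of regions carry 95% Clopper-Pearson intervals (Python 3.11.15, numpy 2.4.6, pandas 2.3.3, scipy 1.17.1). The code was tested on simulated data.

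Regions were named by number of libraries, by presence in one group and absence from another, by nearness to a 3′ splice site, by pyrimidine share, by coding sequence and by number per gene. Members, lists and this rule were chosen with earlier results of these data known. Alternatives changed the thresholds, the rules on exons and opposite genes, the overlap, the libraries and the block.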

Additional observations from a re-analysis of the deposited data

How the results depend on the processing

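The lists hold no strand, counts or depth, so a missing peak and a shallower list cannot be told apart, and annotated strands decide which peaks count as pyrimidine-rich. Of 239 recomputed values, 203 kept their direction and their side of the threshold or stayed within the spread. The cause of the other changes was not tested.

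The difference from purine-rich peaks in the share within 100 nt before a 3′ splice site was close to 0 and changed sign. It was 2.22 points at a pyrimidine threshold of 60%, 0.0940 at 70%, 1.43 with tandem runs of 12 nt excluded, 0.134 without genes on the opposite strand, 0.184 with intervals merged, 0.870 within 200 nt and 0.730 with imperfect repeats left out (chosen after seeing the data), and -0.558 to 0.319 when 1 library was left out. The difference between the knock-in groups in pyrimidine-rich share ran from -0.0749 to 1.20 points when 1 library was left out. The log2 fold enrichment relative to other peaks was -0.10 with tandem runs of 12 nt excluded (exact sign-flip permutation test, p = 0.109) and -0.152 to -0.0940 when 1 library was left out, and relative to purine-rich peaks it was -0.16 to -0.11.

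The share of replicated WT ESC regions without a TKO ESC peak was 63.6% in the 1703 libraries, 66.4% with presence in at least 2 of 3 replicates, and 50.8 to 69.0% when 1 library was left out, against 32.8%, 36.0% and 27.2 to 31.5% of the other regions. Without a WT EB peak it was 80.3 to 93.4% when 1 library was left out and 86.9% with at least 2 of 3 replicates, against 48.8 to 50.5% and 55.2% of the other regions. For the knock-in groups it was 31.0 to 77.1%, against 39.7 to 66.4%. With the replicate number as a replicate block, the share differed by 2.35 points between WT ESC and TKO ESC and by 3.22 points between WT ESC and WT EB (exact sign-flip permutation test, p = 0.25 each, the smallest 3 pairs allow), and no call changed. Deviations from the group means correlated by 0.00699 to 0.177 between libraries of the same number, so the numbers were not taken as pairs.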
